A study of Mus musculus with 26 samples.

Results

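The genes that let fetal Leydig cells make steroid hormones were followed as 10 genes, together with genes better known from the adrenal gland: Star, Cyp11a1, Hsd3b1, Cyp17a1, Insl3, Lhcgr, Ren1, Cyp11b1, Cyp21a1 and Mc2r. They were taken by name, with earlier results of these data known, among 57186 genes in a table with every Fgf9 deletion, called the table of all deletions below, and among 31053 genes in a Meis1 knockout table. Polyadenylated RNA was sequenced from whole XY mouse gonads at embryonic stage E13.5, which had been cut free of the mesonephros and frozen. The 26 samples were wild type (WT, 3), Fgf9 Δ306 (3), Fgf9 Δ93 (6), Fgf9 Δ104 (4), Fgf9 Δ225 (6) and Meis1 KO (4). Fgf9 encodes a secreted growth factor of the early testis and Meis1 a homeobox transcription factor. The labels give no zygosity, strain, litter or deletion boundaries, and they do not say whether a sample is 1 embryo or a pool, so the p-values measure the spread between these samples only. Each library holds RNA of all cells of a gonad, so fewer Leydig cells and less RNA per Leydig cell cannot be told apart.

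Fetal Leydig cells lie between the testis cords, arise from interstitial progenitor cells and begin to make androgens in the days after sex determination. Steroid synthesis starts when the carrier STAR moves cholesterol to the inner mitochondrial membrane, where CYP11A1 cuts its side chain to give pregnenolone. HSD3B1 and CYP17A1 then lead to androstenedione, and in the fetal mouse testis the last step to testosterone is made by HSD17B3 in Sertoli cells. CYP21A1 and CYP11B1 belong to the adrenal route to corticosterone, and MC2R is the receptor for the pituitary hormone ACTH. A minor population of cells with adrenal features is known in the fetal testis.

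All 10 genes were low in every Δ306 and every Δ93 library. Each of the 3 Δ306 and 6 Δ93 libraries lay below all 3 WT libraries for each of the 10 genes. In Δ225 replicates 4, 5 and 6 all 10 genes were above every WT library, in replicate 3 it was 8 genes that were below, and none of the 10 was called different from WT in the group as a whole. The Δ104 libraries were split, with all 10 genes below WT in replicates 1 and 2 and 1 (Insl3) below WT in replicate 3 and 0 in replicate 4. In Meis1 KO none of the 10 was called, and Insl3 was the 1 gene of 10 whose KO libraries were all above the WT libraries.

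**Figure D1:**
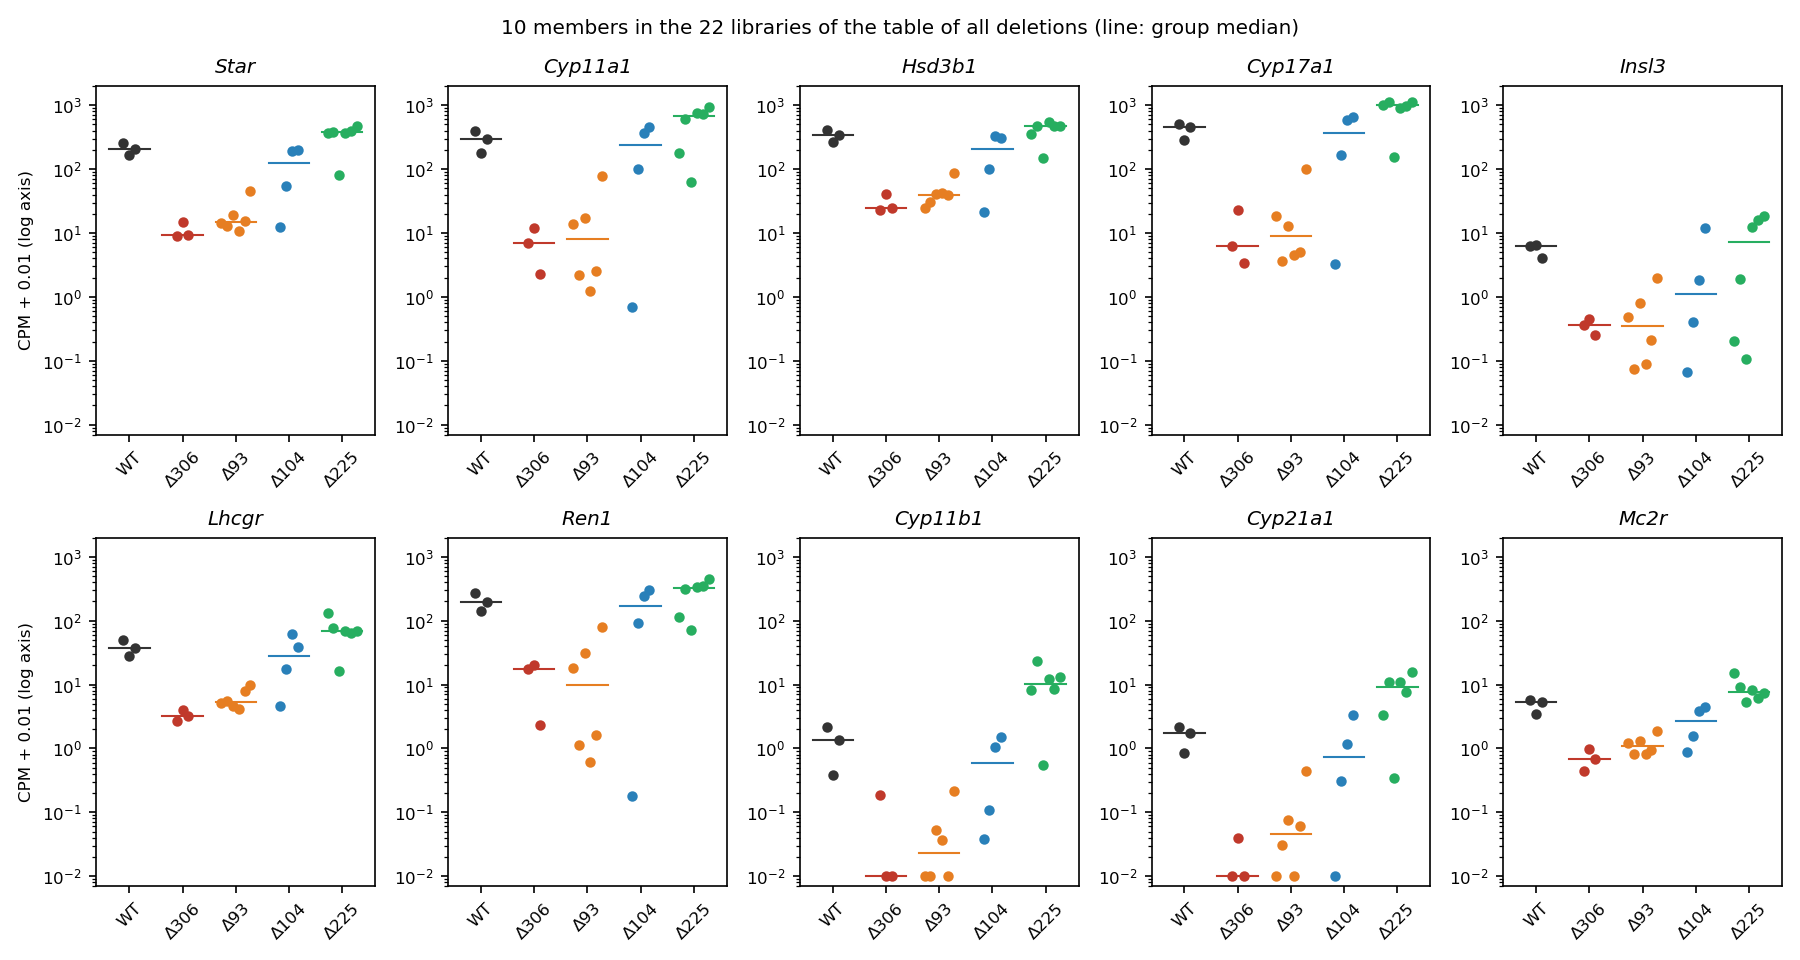
CPM (counts scaled to a common library size, with TMM factors, plus 0.01, log axis) of the 10 genes in the 22 libraries of the table of all deletions. Each point is a library and each line a group median. The Δ306 and Δ93 points lie below all WT points in every panel, and the Δ104 points spread from the level of Δ93 to that of WT.

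Some libraries stood apart before any of the 10 genes was considered. Levels are given as CPM, counts scaled to a common library size. Total counts (M, mega) ran from 11.6 to 53.4 M for the 22 libraries with all deletions, and 35.5 to 51.7 M in the Meis1 table. Fgf9 was at 9.21 to 9.85 CPM in WT, 2.17 to 2.94 in Δ306, 2.30 to 4.75 in Δ93, 2.72 to 6.98 in Δ104 and 3.69 to 16.5 in Δ225, where replicate 3 alone exceeded WT. Meis1 was at 0.201 to 0.695 CPM in Meis1 KO and at 62.1 to 109 CPM in the WT libraries of the same table. Although all samples are labelled XY, 4 genes of the Y chromosome (Ddx3y, Uty, Kdm5d and Eif2s3y, chosen after their values were seen) summed to 0.03 to 0.20 CPM in Δ306 replicate 3, Δ93 replicates 4 and 5 and Δ225 replicate 4, against 1.32 to 77.2 CPM in the other 18. Among these 18, the sums were 31.2 to 77.2 CPM in WT, 11.2 and 11.7 in Δ306 and 1.32 to 6.60 in Δ93. They were 1.92 to 36.2 CPM in Δ104 and 7.40 to 20.5 in Δ225, so leaving out 4 libraries does not make the groups alike in these genes. The 5 germ cell markers summed to 13.9 CPM in WT replicate 1 and to at least 152 CPM in the other 21 libraries. Mitochondrially encoded genes took 11.6% of the counts in Δ225 replicate 1 and 5.47% in replicate 2, against 0.419 to 3.29% in the other 27 library columns. These columns hold the WT libraries in both tables. In the table of all deletions, WT held 0.831 to 1.79% and the deletion libraries 2.23 to 11.6%, without overlap. Whether this has a part in the differences from WT was not tested. The counts of called genes are given below with and without the libraries low in Y-linked genes. Shares of all genes are given only for the edgeR fits with every library of a table. Counts from other fits therefore have no such share beside them.

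Star (chromosome 8, 25806555 to 25815982, plus strand; coordinates here and below are GENCODE M21 on GRCm38) encodes the cholesterol carrier. It was at 253, 165 and 209 CPM in the WT libraries, at 8.91, 14.8 and 9.40 in Δ306, and at 14.2, 13.1, 19.4, 10.6, 15.2 and 44.9 in Δ93. In Δ104 the 4 libraries held 12.5, 54.9, 195 and 202 CPM, so replicate 1 was at the level of Δ93 and replicates 3 and 4 were at that of WT. The 6 Δ225 libraries held 366, 386, 81.4, 370, 390 and 476 CPM, and 5 of 6 exceeded every WT library. Star fell by 4.24 on the log2 scale in Δ306 (SE 0.79, adjusted p = 0.00588, edgeR's quasi-likelihood test with Benjamini-Hochberg adjustment, as for every adjusted p below) and fell by 3.42 in Δ93 (SE 0.59, edgeR adjusted p = 0.00121). Its differences from WT of 0.72 in Δ225 (edgeR adjusted p = 0.550) and -0.85 in Δ104 (edgeR adjusted p = 0.509) did not pass the threshold of 0.05.

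Cyp11a1 (chromosome 9, 58006411 to 58027023, plus strand) encodes the side-chain cleavage enzyme. WT libraries held 391.6, 177 and 294 CPM, Δ306 libraries 6.85, 12.2 and 2.26, and Δ93 libraries 13.7, 2.19, 16.9, 1.22, 2.56 and 79.4. The lowest library of all 22 was Δ104 replicate 1 at 0.694 CPM, and the other Δ104 libraries held 101, 373 and 457. Δ225 held 181, 616, 63.0, 768, 718 and 934 CPM, so replicates 1 and 3 lay within or below the WT range and the other 4 above it. Cyp11a1 fell by 3.89 on the log2 scale in Δ93 (SE 1.16, edgeR adjusted p = 0.0291). In Δ306 the difference was -5.34 (SE 1.64, edgeR adjusted p = 0.0542) and not called, although no Δ306 library reached the WT range.

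Hsd3b1 (chromosome 3, 98852194 to 98859794, minus strand) encodes the enzyme that turns pregnenolone into progesterone. It had the narrowest range of the 10 genes, 25.3-fold from the lowest to the highest of 22 libraries, against 1346-fold for Cyp11a1 and 344-fold for Cyp17a1. WT libraries held 402, 267 and 336 CPM, Δ306 libraries 22.6, 40.7 and 24.5, and Δ93 libraries 24.5, 31.1, 40.5, 42.4, 39.5 and 87.1. Δ104 held 21.2, 102, 331 and 310.2 CPM and Δ225 held 351, 480.0, 151.0, 538, 473 and 479. Hsd3b1 fell by 3.52 in Δ306 (SE 0.69, edgeR adjusted p = 0.00712) and fell by 2.92 in Δ93 (SE 0.52, edgeR adjusted p = 0.00159), both on the log2 scale.

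Since the genes moved together over the libraries, promoter windows were searched for 6 short motifs in the 250 bases before each start in the RefSeq promoter table (GRCm38.p6). The table held 6 windows for 5 of the 10 genes (Cyp11a1 with 2 starts, Hsd3b1, Insl3, Lhcgr and Ren1). Both strands were searched for AAGGTCA as well as for AAGGCCA (half-sites of the kind NR5A1 binds), AGATAA as well as TGATAA (the GATA type), TGACGTCA (the cyclic AMP response element) and TATAAA. Matches were found in 2 windows, 1 of AGATAA and 1 of TATAAA, and the other 4 motifs in 0 of 6. Of all 32851 windows of the table, 4.08% held AAGGTCA, 5.24% AAGGCCA, 9.99% AGATAA, 7.94% TGATAA, 1.55% TGACGTCA and 12.37% TATAAA. The window of Hsd3b1, chr3:98859795-98860044 on the minus strand, is shown because it holds AGATAA, read on the opposite strand as the letters in capitals, 134 bases before the start.
Hsd3b1 upstream: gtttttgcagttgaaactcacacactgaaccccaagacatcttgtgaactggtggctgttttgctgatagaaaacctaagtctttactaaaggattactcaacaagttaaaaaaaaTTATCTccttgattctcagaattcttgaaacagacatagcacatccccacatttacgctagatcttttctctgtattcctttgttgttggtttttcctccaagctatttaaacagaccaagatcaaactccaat
A match is a description of these letters, and the search says nothing about which factor binds.

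Cyp17a1 (chromosome 19, 46667165 to 46673172, minus strand) encodes the enzyme that commits the pathway to androgens. WT libraries held 501, 287 and 461 CPM, Δ306 libraries 6.36, 23.2 and 3.39, and Δ93 libraries 18.2, 3.69, 12.8, 4.46, 5.06 and 101. Δ104 held 3.30, 165, 582 and 647 CPM, so replicates 3 and 4 were above every WT library while replicate 1 was the lowest of all 22. Δ225 held 1023, 1126, 157, 897, 978 and 1137 CPM, with 5 of 6 above every WT library and replicate 3 below them all. Cyp17a1 fell by 5.24 in Δ306 (SE 1.44, edgeR adjusted p = 0.0342) and fell by 4.11 in Δ93 (SE 1.03, edgeR adjusted p = 0.0116) on the log2 scale. The difference of 1.09 between Δ225 and WT (SE 1.09, edgeR adjusted p = 0.616) was no larger than its error.

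Lhcgr (chromosome 17, 88716481 to 88791990, minus strand) encodes the receptor for luteinizing hormone. WT libraries held 50.01, 27.7 and 37.3 CPM, Δ306 libraries 2.68, 4.02 and 3.21, and Δ93 libraries 5.19, 5.50, 4.57, 4.09, 7.79 and 9.80. Lhcgr was the only 1 of the 10 genes whose Δ93 libraries were all above the Δ306 libraries, and the difference between these groups was not called (0.89, SE 0.59, edgeR adjusted p = 0.706). Δ104 held 4.58, 17.3, 62.7 and 39.0 CPM and Δ225 held 132, 77.9, 16.4, 69.8, 65.0 and 69.0. Lhcgr fell by 3.53 in Δ306 (SE 0.70, edgeR adjusted p = 0.0072) and fell by 2.64 in Δ93 (SE 0.53, edgeR adjusted p = 0.00297) on the log2 scale.

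Ren1 (chromosome 1, 133350510 to 133360325, plus strand) encodes renin, the enzyme that cuts angiotensinogen, and is known from the fetal adrenal and gonad as well as the kidney. WT libraries held 275, 141 and 198 CPM, Δ306 libraries 17.7, 20.1 and 2.30, and Δ93 libraries 18.3, 1.12, 31.7, 0.610, 1.60 and 78.2. Δ104 replicate 1 held 0.167 CPM and the other Δ104 libraries 93.3, 240 and 300.3. Δ225 held 115, 316, 70.03, 332, 351 and 446 CPM, with 4 of 6 above every WT library. From the lowest to the highest of 22 libraries Ren1 ranged 2674-fold, the widest of the 8 genes detected in all of them. Its differences from WT were -3.94 in Δ306 (SE 1.59, edgeR adjusted p = 0.144) and -3.22 in Δ93 (SE 1.19, edgeR adjusted p = 0.0747), not called in either. The RefSeq window of Ren1 held TATAAA 29 bases before the RefSeq start, shown in capitals within chr1:133350633-133350662 on the plus strand.
Ren1 stretch: atacatggtgtgTATAAAagaaggctcagg
The GENCODE M21 gene starts upstream of this stretch.

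Mc2r (chromosome 18, 68406907 to 68429320, minus strand) encodes the ACTH receptor. WT libraries held 5.70, 3.46 and 5.38 CPM, Δ306 libraries 0.439, 0.982 and 0.671, and Δ93 libraries 1.23, 0.821, 1.301, 0.796, 0.927 and 1.84. Δ104 held 0.861, 1.57, 3.78 and 4.43 CPM, and Δ225 held 15.1, 8.98, 5.27, 8.21, 6.14 and 7.28. Only Δ225 replicate 3 lay within the WT range, and the other 5 Δ225 libraries were above it. Mc2r fell by 2.78 in Δ306 (SE 0.54, edgeR adjusted p = 0.00666) and fell by 2.07 in Δ93 (SE 0.41, edgeR adjusted p = 0.00293) on the log2 scale, the smallest change of the 10 genes in both groups. It differed from WT by 0.81 in Δ225 (SE 0.44, edgeR adjusted p = 0.358).

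Cyp11b1 (chromosome 15, 74834125 to 74841643, minus strand) encodes the last enzyme of the adrenal route to corticosterone, and its level in WT was low. WT libraries held 2.16, 0.369 and 1.35 CPM (86, 19 and 51 counts), Δ306 libraries 4, 0 and 0 counts, and Δ93 libraries 0, 0, 2, 1, 0 and 8 counts. Δ104 held 0.0278, 0.0983, 1.05 and 1.51 CPM. Δ225 held 8.29, 23.3, 0.532, 12.03, 8.37 and 13.3 CPM, so that 5 of 6 libraries were above every WT library and replicate 3 was within their range. Cyp11b1 fell by 4.76 on the log2 scale in Δ93 (SE 1.14, edgeR adjusted p = 0.00873), differed by -4.69 in Δ306 (SE 1.55, edgeR adjusted p = 0.0737) and was higher by 3.09 in Δ225 without being called (SE 1.105, edgeR adjusted p = 0.210). The difference in Δ225 was the largest of the 10 genes there.

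Cyp21a1 (chromosome 17, 34801348 to 34804561, minus strand) encodes the 21-hydroxylase of the same route. WT libraries held 2.19, 0.835 and 1.74 CPM (87, 43 and 66 counts), the 3 Δ306 libraries 1 count in all, and the Δ93 libraries 0, 1, 3, 0, 2 and 17 counts. From the summed counts per library size, WT was 129-fold higher than Δ306, with a 95% interval of 22.8 to 5102 that covers counting error only, and the gene was called lower in Δ306 (edgeR adjusted p = 0.0397). It fell by 4.01 on the log2 scale in Δ93 (SE 1.11, edgeR adjusted p = 0.0196). Δ104 held 0, 0.295, 1.16 and 3.31 CPM, and Δ225 held 3.32, 10.9, 0.339, 11.1, 7.55 and 15.5. Here too 5 of 6 Δ225 libraries exceeded every WT library, with a difference of 2.36 that was not called (SE 1.13, edgeR adjusted p = 0.309).

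Near copies could share reads with some of the 10 genes. Of 75-base windows along the longest transcript, 14.67% of those of Cyp21a1 also occurred in another gene, mostly its pseudogene Cyp21a2-ps (260 of 1984), and 13.98% of those of Cyp11b1, mostly the aldosterone synthase gene Cyp11b2 (221 of 3091) and Gml2 on the opposite strand (211). Hsd3b1 shared 1.4%, with Gm12431, and Star, Cyp11a1, Cyp17a1, Lhcgr, Ren1 and Mc2r shared none. Cyp21a2-ps had 5, 1 and 0 counts in WT, 0 in every Δ306 and Δ93 library and 4, 14, 1, 16, 8 and 22 in Δ225. Cyp11b2 had 0, 0 and 2 counts in WT, 0 in every Δ93 library and 0, 9, 0, 18, 11 and 18 in Δ225. Both near copies were thus highest in Δ225, as were the genes they resemble, and whether these are their own transcripts or reads of Cyp21a1 and Cyp11b1 was not tested. Adding the copies' counts to the genes changed no call.

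Insl3 (chromosome 8, 71689214 to 71690575, plus strand) encodes the peptide hormone that draws the testis down, and it is the gene of the set whose counting can be questioned. Its exon 1 (71689214 to 71689432, 219 bases) is its own, while all 404 bases of exon 2 (71690172 to 71690575) lie within an exon of Jak3 on the same strand, so a stranded count cannot separate them. The junction is shown because only reads that touch exon 1 are particular to Insl3: in the stretch below, 60 bases of exon 1 (71689373 to 71689432, lower case) meet 60 bases of exon 2 (71690172 to 71690231, capitals).
Insl3 junction: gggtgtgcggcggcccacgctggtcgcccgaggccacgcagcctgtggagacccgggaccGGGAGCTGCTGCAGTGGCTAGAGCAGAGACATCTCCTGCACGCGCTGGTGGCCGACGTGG
Of 549 windows of 75 bases along the Insl3 transcript, 330 (60.11%) also occurred in Jak3.

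The same 3 WT libraries were counted in both tables, and there Insl3 differed most. In the table of all deletions they held 250, 329 and 155 Insl3 counts, against 1837, 1303 and 966 in the Meis1 table, or 13.6 to 25.2%. Over the 3 libraries the share was 17.9%, and 235 of 14237 genes with at least 100 counts (1.65%) were below 50%. Lhcgr had 133 to 144% and Cyp21a1 81.5 to 89.6% of its counts in the Meis1 table, the other 7 genes 100 to 104.1% and Jak3, chosen after its place was seen, 98.5 to 99.8%. The counting tool behind the later deletions is not given in the sources used here, and the cause of the gap was not tested. Insl3 levels are therefore read within a table only.

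**Figure D2:**
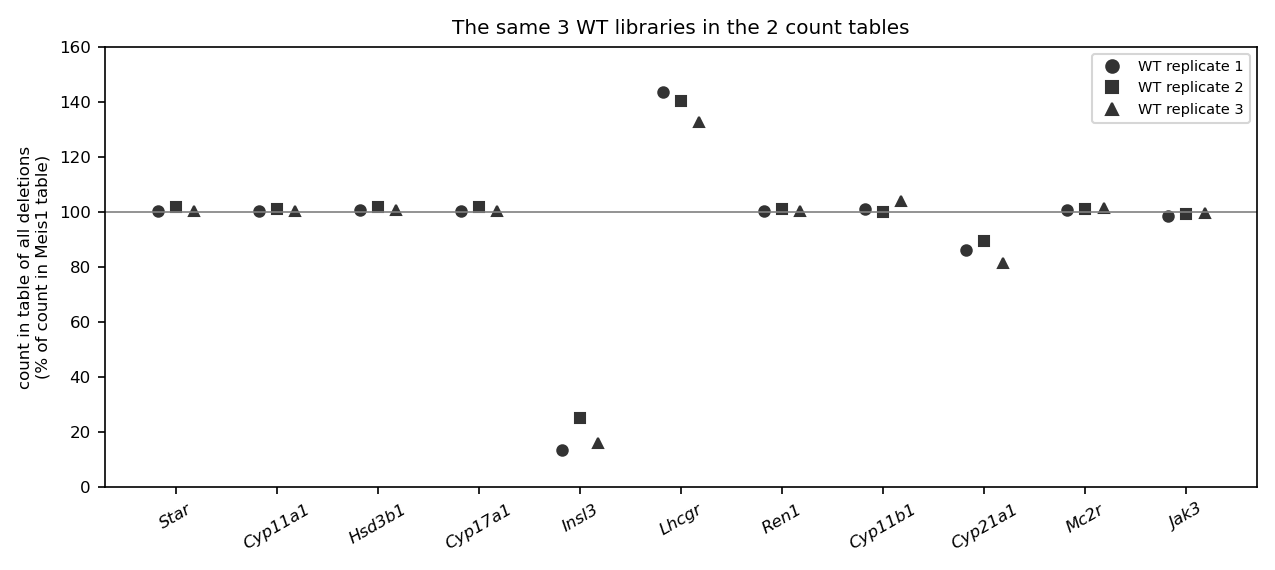
Counts of the 10 genes and of Jak3 in the table of all deletions as a percent of the counts in the Meis1 table, for the same 3 WT libraries (marker shapes). The line marks 100%. Insl3 lies at 13.6 to 25.2%, Lhcgr at 133 to 144% and Cyp21a1 at 81.5 to 89.6%.

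Within the table of all deletions, Insl3 was at 6.28, 6.39 and 4.09 CPM in WT, 0.351, 0.446 and 0.247 in Δ306, and 0.472, 0.0632, 0.802, 0.0796, 0.200 and 1.94 in Δ93. Its differences from WT of -4.00 in Δ306 (SE 1.67, edgeR adjusted p = 0.157) and -3.23 in Δ93 (SE 1.22, edgeR adjusted p = 0.0813) were not called. Δ104 held 0.0555, 0.393, 1.80 and 11.8 CPM. In Δ225 the libraries fell apart, with 0.195, 1.91 and 0.0967 CPM in replicates 1 to 3, all below WT, and 12.6, 16.1 and 18.6 CPM in replicates 4 to 6, all above WT.

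Cyp11a1 and Ren1 also had Δ225 replicates 1 to 3 below replicates 4 to 6 without overlap (63.0 to 616 against 718 to 934 CPM for Cyp11a1), whereas these replicates overlapped for Star, Hsd3b1 and Cyp17a1. For 1000 counts of Cyp17a1, which is expressed in the same cells, there were 0.191, 1.70 and 0.616 counts of Insl3 in Δ225 replicates 1 to 3 and 14.0, 16.4 and 16.3 in replicates 4 to 6. Replicates 1 to 3 lay below all other 19 libraries of the table in this ratio. WT held 12.5, 22.2 and 8.87, Δ306 19.2 to 72.9, Δ93 17.1 to 62.5, and Δ104 16.8, 2.39, 3.10 and 18.2, with replicates 2 and 3 low. The Insl3 counts behind these ratios were 2, 44 and 2 in Δ225 replicates 1 to 3 and 7 to 15 in Δ306. They were 3 to 76 in Δ93 and 2, 8, 31 and 242 in Δ104, so few reads set many of these ratios. The Δ225 libraries with the low ratio were also shallower, with 11.6, 23.3 and 20.2 M counts against 41.3 to 46.8 M, and their Amh, the Sertoli cell hormone, was at 58.7, 405 and 311 CPM against 1110.1 to 1440.4 in replicates 4 to 6. Whether these values have a part in the ratio was not tested.

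**Figure D3:**
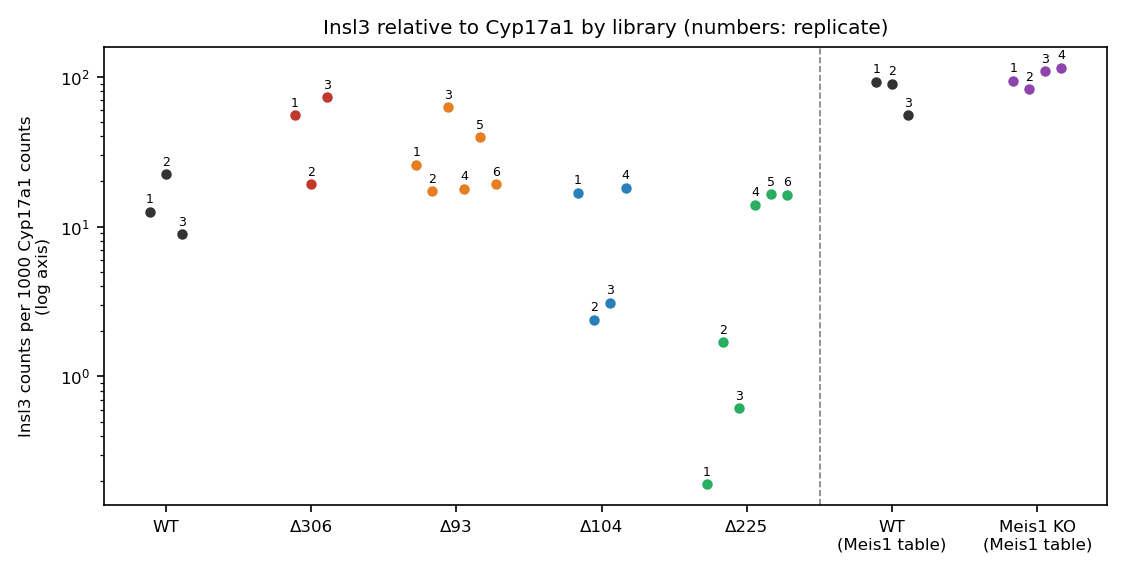
Insl3 counts per 1000 Cyp17a1 counts in each library (log axis), with replicate numbers above the points and the Meis1 table right of the dashed line. In Δ225, replicates 1 to 3 lie between 0.191 and 1.70 (2, 44 and 2 Insl3 counts) and replicates 4 to 6 between 14.0 and 16.4.

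In the comparison of Δ306 with WT, 6 of the 10 genes were called lower and none higher (Star, Hsd3b1, Cyp17a1, Lhcgr, Cyp21a1 and Mc2r), where 6.43% of 22941 genes tested were called and 3.46% called lower. The groups' libraries did not overlap for any of the 10, against 37.6% of all genes. The median difference of the 10 was -4.12 on the log2 scale, against 0.08 over all genes tested. All 10 were called when Δ306 and WT were fitted alone and when the earlier count table of these 2 groups was used. Without Δ306 replicate 3, low in Y-linked genes, 2 were called. Without all 4 such libraries 0 were called, with differences of -2.80 to -6.55 and an edgeR adjusted p of 0.0671 for Star.

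In Δ93 against WT, 8 of the 10 were called lower and none higher, all but Insl3 and Ren1, where 14.1% of all genes were called and 6.84% called lower. None of the 10 overlapped, against 24.7% of all genes without overlap, and the median difference was -3.33 against 0.06 over all genes. Replicate 6 was the highest Δ93 library for all 10 genes and still lay below WT for each. All 10 were called without replicate 6, 5 without WT replicate 1, and 4 (Star, Hsd3b1, Lhcgr and Mc2r) without the libraries low in Y-linked genes. Without those libraries and WT replicate 1 none was called. Δ93 and Δ306 were not called different from each other for any of the 10 genes, where 0.0785% of all genes were called and none of the 10 had an unadjusted p under 0.05. Lhcgr was the 1 gene of 10 without overlap there, against 6.38% of all genes.

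**Figure D4:**
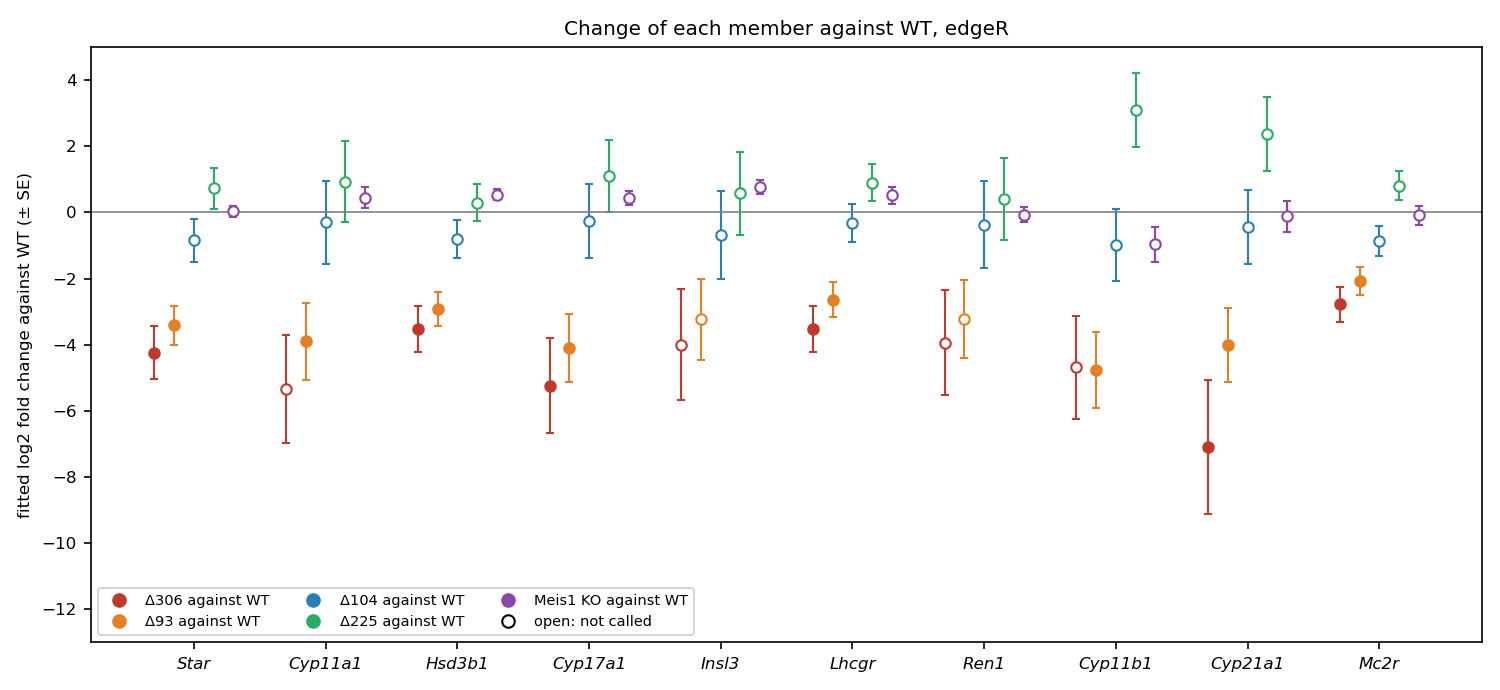
Fitted log2 difference from WT (points, with bars of ± SE) for each of the 10 genes in Δ306, Δ93, Δ104, Δ225 and Meis1 KO. Filled points were called at an edgeR adjusted p under 0.05. All filled points belong to Δ306 and Δ93 and lie between -2.07 and -7.09, the latter resting on 1 count of Cyp21a1 in Δ306.

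In Δ225 against WT none of the 10 genes was called, where 0.209% of all genes were called, and 2 (Cyp11b1 and Cyp21a1) had an unadjusted p under 0.05. DESeq2 called none either. All 10 differences were above 0, from 0.30 for Hsd3b1 to 3.09 for Cyp11b1. Replicate 3 was the lowest of the 6 libraries for each of the 10 genes and lay below every WT library for 8, and it is the library in which Fgf9 was at 16.5 CPM. Among the other 5 libraries, Star, Cyp17a1, Lhcgr, Cyp11b1, Cyp21a1 and Mc2r were above every WT library in 5 of 5, Cyp11a1, Hsd3b1 and Ren1 in 4 of 5 and Insl3 in 3 of 5.

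Set against the lower groups, Δ225 was higher for all 10 genes than Δ93, with differences of 2.88 (Mc2r) to 7.86 (Cyp11b1) and edgeR adjusted p of 4.49e-05 to 0.0244. Of all genes 20.8% were called in this comparison and 9.96% called higher, and 6 of the 10 did not overlap, against 11% of all genes. Without the libraries low in Y-linked genes 8 were called higher. Against Δ306, 8 of 10 were higher, all but Insl3 (4.57, edgeR adjusted p = 0.0677) and Ren1 (4.35, edgeR adjusted p = 0.0684), where 13.2% of all genes were called and 6.47% called higher, and 4 were called without the libraries low in Y-linked genes. Of the 10, 9 did not overlap between Δ225 and Δ306, against 20.2% of all genes. Both comparisons use the same Δ225 libraries. Cyp21a1, with 1 count in Δ306 and 1751 in Δ225, was 811-fold higher in Δ225 per library size (95% interval 145 to 32051, counting error only).

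Δ104 was called different from no other group for any of the 10 genes. Of all genes 0.061% were called against WT, 0.645% in Δ225 against Δ104, 0.0523% in Δ93 against Δ104 and 0.0654% in Δ104 against Δ306. The differences from WT were all below 0, from -0.25 for Cyp17a1 to -0.99 for Cyp11b1, and none of the 10 had an unadjusted p under 0.05. Between Δ93 and Δ104 all 10 had one (edgeR adjusted p of 0.0768 to 0.321), and without Δ104 replicate 1, 8 of the 10 were called. For Δ104 against Δ306, 9 of 10 had an unadjusted p under 0.05, with 5 called without Δ104 replicate 1 and 7 called by DESeq2. For Δ225 against Δ104, 6 of 10 had one, with 2 called by DESeq2 (Cyp11b1 and Mc2r). The shares of all genes above do not apply to the fits without Δ104 replicate 1 or to DESeq2. A single gene of 10 did not overlap in Δ104 against Δ306 (Lhcgr, 11.2% of all genes) and 1 in Δ225 against Δ104 (Mc2r, 1.67% of all genes). Cyp11a1 alone ran from 0.694 to 457 CPM over the 4 Δ104 libraries.

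Ordered by group median, 8 of the 10 genes ran Δ225, WT, Δ104, Δ93, Δ306 from high to low, and for Insl3 and Ren1 Δ306 stood above Δ93. Neighbouring groups in that order overlapped in their libraries for all 10 genes, with the exception of Lhcgr between Δ93 and Δ306. Per kilobase of exon, the WT medians were 181 CPM for Hsd3b1, 166 for Cyp17a1, 119 for Ren1, 61.1 for Cyp11a1 and 50.8 for Star, far above 4.89 for Lhcgr, 3.30 for Mc2r, 0.813 for Cyp21a1 and 0.425 for Cyp11b1. In Δ225 the level per kilobase was 4.31 for Cyp21a1 and 3.22 for Cyp11b1, still below every steroid enzyme of the testis route.

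Markers of some other cells moved with these groups. The 10 Sertoli markers, the cells that line the cords, summed to 2064 to 2545 CPM in WT, 122 to 587 in Δ306, 90.6 to 924 in Δ93, 65.9 to 2154 in Δ104 and 715 to 2356 in Δ225. The 6 markers of pre-granulosa cells, their ovarian counterpart, went the other way, at 64.4 to 112 CPM in WT, 378 to 737 in Δ306, 430 to 1088 in Δ93, 67.0 to 722 in Δ104 and 65.4 to 109 in Δ225. The 7 markers of the interstitial progenitors from which Leydig cells arise summed to 1761 to 2056 CPM in WT, 588 to 854 in Δ306, 579 to 854 in Δ93, 581 to 2097 in Δ104 and 1539 to 1986 in Δ225. Against WT, all 7 progenitor markers and all 10 Sertoli markers were lower in both Δ306 and Δ93, and all 6 pre-granulosa markers were higher. The Sertoli list includes Fgf9 itself, the gene the deletions are named after. Its lower level is part of the design and says nothing about Sertoli cells. Fewer passed the threshold. In Δ306 and Δ93, 5 and 7 of the 7 progenitor markers were called lower, as were 2 and 4 of the 10 Sertoli markers. Of all genes tested, 3.46% and 6.84% were called lower. Of the 6 pre-granulosa markers, 5 and 6 were called higher, where 6.43% and 14.1% of all genes were called in either direction. Against WT, no germ cell, macrophage or blood marker was called in Δ306 or Δ93, and 1 of 5 endothelial markers was called lower in each. The 6 blood markers summed to 10733 to 13102 CPM in WT, 9469 to 18675 in Δ306 and 4475 to 54691 in Δ93. They summed to 12480 to 26967 CPM in Δ104 and 2815 to 18836 in Δ225. The part of these marker levels and shifts in the results for the 10 genes was not tested.

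Library by library the same order returned. In Δ104, Amh was at 0.361, 155, 489 and 1166 CPM and Foxl2, a transcription factor of the ovary, at 77.0, 40.5, 13.0 and 1.22, next to Cyp17a1 at 3.30, 165, 582 and 647. In Δ93 replicate 6, the library with the highest steroid genes of its group, Amh was at 384 CPM against 1.18 to 102 in the other 5. Δ225 replicate 3, low in steroid genes, did not share this: its pre-granulosa markers summed to 92.0 CPM, within the WT range, and its progenitor markers to 1539 CPM. Its Sertoli markers summed to 820 CPM, between replicates 1 (715) and 2 (1038) of the same group, in which Cyp17a1 was at 1023 and 1126 CPM.

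**Figure D5:**
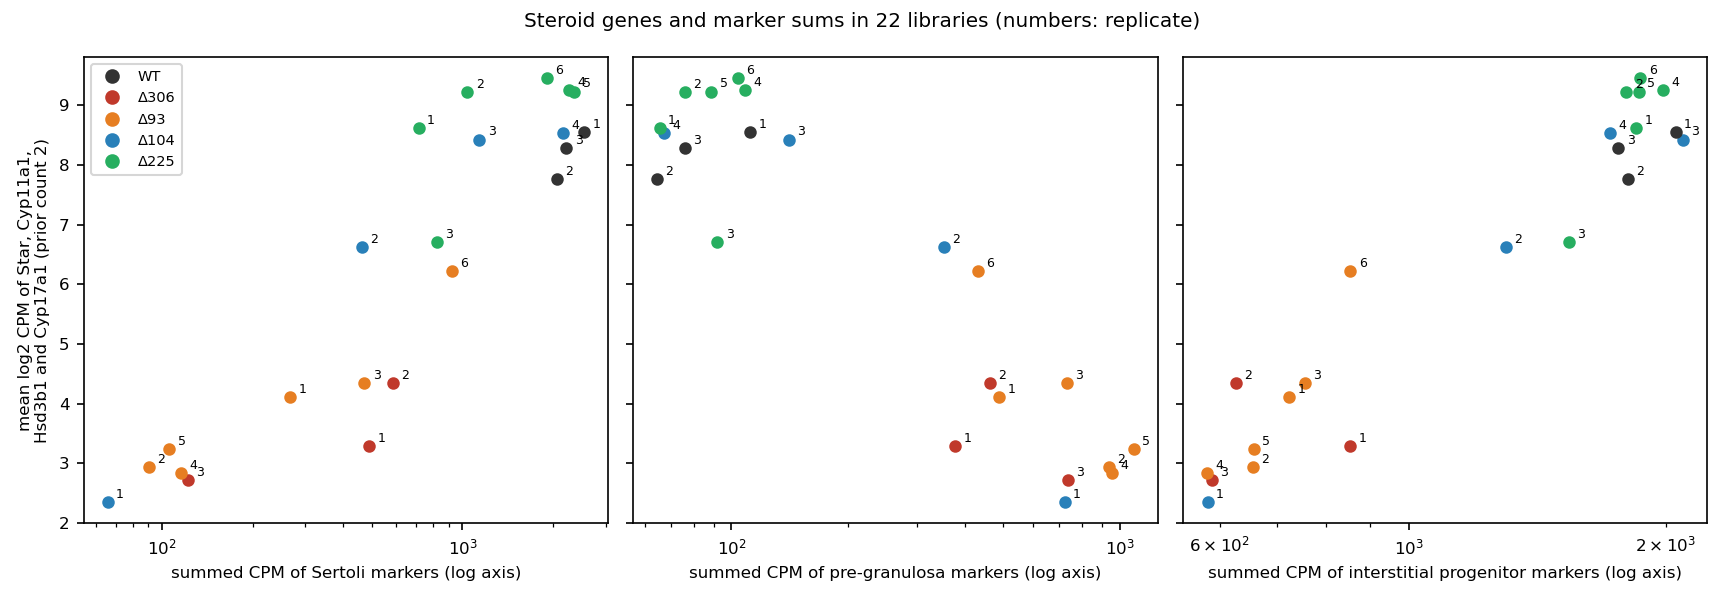
Mean log2 CPM (prior count 2) of Star, Cyp11a1, Hsd3b1 and Cyp17a1 in each of 22 libraries against the summed CPM of Sertoli, pre-granulosa and interstitial progenitor markers (log axes, numbers are replicates). Libraries with few steroid transcripts lie low in Sertoli and progenitor markers and high in pre-granulosa markers, and Δ225 replicate 3 lies apart from the other Δ225 libraries.

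Adrenal tissue was looked for in the same libraries. The 5 markers of the adrenal medulla summed to 2.61 to 2.68 CPM in WT, 2.26 to 9.57 in Δ306, 1.43 to 2.17 in Δ93, 0.885 to 3.89 in Δ104 and 1.17 to 7.20 in Δ225. Of its defining genes, Th, the first enzyme of catecholamine synthesis, was at 0.145 to 2.15 CPM in Δ225, and Dbh, a later one, was at 0 to 0.387 CPM. The 5 markers of the adrenal cortex summed to 20.3 to 34.5 CPM in WT, 11.7 to 19.1 in Δ306, 3.81 to 99.2 in Δ93, 19.2 to 43.7 in Δ104 and 12.5 to 42.5 in Δ225. The 99.2 CPM were in Δ93 replicate 1, where Hsd3b6, named after its value was seen, made up 97.5 CPM. Hsd3b6 was also a large part of the sum elsewhere, at 16.6 to 24.1 CPM in WT and 3.05 to 38.2 in Δ225. In Δ225 against WT, 3 of the 5 cortex markers were higher and 2 lower, with a median log2 difference of 0.79. Of these, Akr1b7, an aldo-keto reductase of the cortex, was at 1.81 to 4.12 CPM in WT and 2.13 to 9.64 in Δ225, and no list gene was called between these groups. Kidney and mesonephros markers summed to 22.9 to 45.3 CPM over all 22 libraries, but single genes of this list differed. Of its 7 genes, 1 was called higher and 4 lower in Δ225 than in Δ93, where 20.8% of all genes were called. In Δ225, 2 were called lower than in Δ306 (13.2% of all genes called) and 1 lower than in Δ104 (0.645%). Against WT, 1 was called higher in Δ93 (14.1%) and none in Δ306, Δ104 or Δ225.

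Of 48 other listed genes of the pathway, 46 were tested. In Δ306 against WT 2 of the 46 were called higher and 11 lower, where 6.43% of all genes were called and 3.46% called lower. In Δ93 against WT 6 were called higher and 16 lower, where 14.1% of all genes were called and 6.84% called lower. None was called in Δ225 or Δ104 against WT (0.209% and 0.061% of all genes). Δ225 had 21 called higher and 5 called lower than Δ93 (20.8% of all genes called, 9.96% higher). It had 15 called higher and 1 called lower than Δ306 (13.2% of all genes called, 6.47% higher). Values in the following are log2 differences with edgeR adjusted p, first for Δ93 and then for Δ306 against WT. Prlr, the prolactin receptor, fell by 2.48 (0.0011) and fell by 3.84 (0.00157), and it was the 1 listed gene called in Δ104 against Δ306 (3.27, edgeR adjusted p = 0.0329).

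Among enzymes, Hsd17b1, a 17β-hydroxysteroid dehydrogenase, fell by 3.61 (edgeR adjusted p = 0.0032) and fell by 3.92 (0.0217), and Hao2, a hydroxyacid oxidase, fell by 2.68 (0.0178) and fell by 3.35 (0.0418). Fdx1, the ferredoxin that passes electrons to CYP11A1 and CYP11B1, fell by 1.90 in Δ93 (edgeR adjusted p = 0.0134) and differed by -1.86 in Δ306 (0.0708). Against these, Srd5a2, a 5α-reductase, rose by 2.71 (edgeR adjusted p = 0.00843) and rose by 2.68 (0.0266) from a WT mean of 0.146 CPM. Akr1c18, which breaks down progesterone, rose by 8.41 in Δ93 (edgeR adjusted p = 0.00583), to a mean of 2.57 CPM, and differed by 4.56 in Δ306 (0.213). Its level in WT was near the limit of detection, so the size of these differences is uncertain. Hsd17b7 was not called against WT and was higher in Δ225 than in Δ93 (1.11, edgeR adjusted p = 0.000712).

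Regulators and secreted products split as well. Nr0b1, a repressor of NR5A1 targets, rose by 1.17 in Δ93 (edgeR adjusted p = 0.0105) and 1.23 in Δ306 (0.0276), whereas Tcf21, a transcription factor gene, fell by 1.63 (0.00285) and fell by 1.48 (0.0299). Nr4a1, an orphan receptor induced by hormone signals, fell by 1.88 (edgeR adjusted p = 0.00174) and fell by 1.87 (0.0147). Nr5a1, the master regulator of steroidogenic genes, named here after its value was seen, differed by -0.75 (edgeR adjusted p = 0.109) and -1.15 (0.0643) and was not called. Inha, the inhibin subunit, fell by 2.22 (edgeR adjusted p = 0.0135) and fell by 2.92 (0.024). Agt, which encodes the substrate of renin, fell in both groups and had its smallest edgeR adjusted p (0.00207) in Δ225 against Δ93, where it was higher. Ace, which acts after renin, was higher in Δ225 than in Δ306 (2.82, edgeR adjusted p = 0.00256) and not called in Δ306 (-1.67, 0.0808) or Δ93 (-0.64, 0.389) against WT.

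The genes whose profile over the 22 libraries was most like the mean profile of Star, Cyp11a1, Hsd3b1 and Cyp17a1 were ranked by root mean square difference of centred log2 CPM, over 16146 genes. Oxtr, the oxytocin receptor, came first with 0.30, followed by Gsta2 (0.52), Adh1 (0.54), C7 (0.54), Gm28382 (0.57), Serpina5 (0.61), Cbln1 (0.65), Hao2 (0.65), Defb19 (0.66) and Hsd17b1 (0.67). Oxtr was at 29.5 to 47.3 CPM in WT, 0.848 to 1.90 in Δ306, 0.822 to 7.96 in Δ93, 0.4998 to 38.3 in Δ104 and 12.4 to 58.9 in Δ225. Nearest to the mean profile of Cyp11b1, Cyp21a1 and Mc2r were Hao2 (0.72), Ephx1 (0.81), C7 (0.82), Clps (0.83) and Adh1 (0.85), so these genes followed the adrenal-like profile less closely than Oxtr followed the steroid one. Clps, colipase, was at 0.602 to 1.85 CPM in WT and 0 to 9.11 in Δ225. With a prior count of 0.5 in place of 2, 8 of the 10 and 3 of the 5 genes were shared. Oxtr then came first for both profiles, with 0.29 for the steroid and 0.88 for the adrenal-like one. The ranking is a description of libraries that share WT, depth and cell makeup.

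Meis1 KO libraries held the 10 genes at levels that mostly overlapped WT. None of the 10 was called, where 1.8% of 16791 genes were called, and 1 of the 10 did not overlap between the groups, against 19.7% of all genes. Insl3 held 69.1, 52.0, 61.0 and 55.2 CPM in the KO libraries against 49.6, 27.5 and 27.1 in WT, a difference of 0.77 (SE 0.22, edgeR adjusted p = 0.113). Hsd3b1 held 624, 526, 478 and 426 CPM against 430, 285 and 354, a difference of 0.53 (SE 0.17, edgeR adjusted p = 0.142). These 2 had an unadjusted p under 0.05, and DESeq2 called both, as did edgeR without WT replicate 1.

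Of the other steroid genes in the KO, Star held 280, 222, 214 and 193 CPM against 271, 176 and 221 in WT (0.03, SE 0.17, edgeR adjusted p = 0.951), and Cyp17a1 736, 630, 560 and 482 against 536, 307 and 487 (0.44, SE 0.21, edgeR adjusted p = 0.295). Cyp11a1 (0.45) and Lhcgr (0.51) were above WT on average, and Ren1 (-0.07), Cyp21a1 (-0.12) and Mc2r (-0.09) were slightly below it, all with overlapping libraries. Cyp11b1 held 0.802, 0.552, 0.940 and 0.472 CPM against 2.30, 0.401 and 1.37, a difference of -0.96 that was not called (SE 0.53, edgeR adjusted p = 0.372). KO replicate 1 was above all WT libraries for 8 of the 10 genes, replicates 2 and 3 for 4 each and replicate 4 for 1. Of 41 other pathway genes tested, 1 was called higher and 1 lower, named after their values were seen, where 1.8% of all genes were called. These were Cyb5b, a cytochrome b5 (0.42, edgeR adjusted p = 0.0428), and Hsd3b6, a close relative of Hsd3b1 (-1.01, edgeR adjusted p = 0.0389).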

How the data were processed

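Polyadenylated RNA of 26 gonads or gonad samples was sequenced with a directional kit, per the labels' protocols. The tables hold gene counts deposited by the authors. Per the submitters' processing notes, reads were mapped to mm10 with STAR, version 2.7.10a for the earlier samples, and counted there with featureCounts; the counter of the later deletions is not given in the sources used here. No per-sample column was left unused (0). Groups came from the labels.

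Counts were filtered with filterByExpr, scaled by TMM and tested with edgeR 4.0.16 in R 4.3.3 (quasi-likelihood test, Benjamini-Hochberg adjustment over all genes tested, called at an adjusted p under 0.05). One fit held the 22 libraries of all deletions (22941 genes tested, 17 residual degrees of freedom, 10 comparisons) and another the 7 of the Meis1 table (16791 genes, 5). WT counts of the first table and the Meis1 table were identical at all 31053 genes. Tested on simulated data for Δ93 against WT (21866 genes), the fit recovered 99% of 200 genes changed 4-fold, with 8 false calls. That share does not carry over to the 10 genes. Insl3 (-3.23, SE 1.22) and Ren1 (-3.22, SE 1.19) differed by more on the log2 scale in Δ93 and were not called. Alternatives used DESeq2 1.42.0, other scalings and filters, a replicate block, other sets of libraries and summed near copies.

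The 10 genes and all lists were chosen with earlier results of these data known. Other genes named were the 20 pathway genes of smallest adjusted p, the first genes of each marker list and the 10 and 5 genes of most alike profile (mean of at least 1 CPM, prior count 2). Exceptions are marked where they occur, and 1 gene that the rule names is not reported here.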

Additional observations from a re-analysis of the deposited data

Results flagged for a closer look

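Of 40 sets of 4 to 6 libraries (1 gene in 1 group each) checked for a single library far from the rest, 10 held one. The same libraries recur for all 10 genes, so these checks are not independent and the count cannot be set against a chance rate. In Δ93, replicate 6 was far above the other 5 libraries for 6 genes. Star was at 44.9 CPM there against 10.6 to 19.4, Cyp11a1 at 79.4 against 1.22 to 16.9, Hsd3b1 at 87.1 against 24.5 to 42.4, and Cyp17a1 at 101 against 3.69 to 18.2. Cyp11b1 was at 0.204 CPM (8 counts) against 0 to 0.0434, and Cyp21a1 at 0.434 CPM (17 counts) against 0 to 0.0650.

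In Δ225, replicate 3 was far below the other 5 libraries for Star (81.4 CPM against 366 to 476) and Cyp17a1 (157 CPM against 897 to 1137). Insl3 was at 11.8 CPM in Δ104 replicate 4 against 0.0555 to 1.80 in the other 3 libraries. Cyp21a1 was at 3.41 CPM in Meis1 KO replicate 1 against 1.27 to 1.33 in the other 3.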

How the results depend on the processing

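With other scaling (RLE factors, or no composition factor) all 110 single-gene results kept their direction and their side of the threshold, as did all 32 with near copies added. DESeq2 added 20 calls and lost none, and called 2 genes in Δ225 against Δ104, 5 in Δ93 against Δ104, 7 in Δ104 against Δ306 and 2 in Meis1 KO. Without the low-count filter 2 were called in Δ93 against Δ104. Δ306 against WT gave 10 when the groups were fitted alone and 10 in the first table. The next alternatives were chosen after seeing the data. With Δ225 replicates 4 to 6 alone, 1 was called against Δ104. Without the 4 libraries low in Y-linked genes the counts were 0 for Δ306 against WT, 4 for Δ93 against WT and 4 for Δ225 against Δ306, and without WT replicate 1 as well 0, 0 and 4. The causes of these shifts were not tested. The share of all genes called is not given for the alternatives here and in the next paragraph, so their counts have no background beside them.

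Leaving out 1 library at a time, 2 to 4 genes were called in Δ306 against WT (2 without Δ306 replicate 3), 5 to 10 in Δ93 against WT, 6 to 9 in Δ225 against Δ306 (6 without Δ306 replicate 3), 10 in Δ225 against Δ93, 0 to 2 in Δ225 against Δ104 (2 without Δ104 replicate 4 or Δ225 replicate 3), 0 to 8 in Δ93 against Δ104 (8 when Δ104 replicate 1 was left out, 3 and 4 when Δ93 replicate 1 or 6 was), 0 to 5 in Δ104 against Δ306, 0 to 2 in Meis1 KO and 0 in the other comparisons. Signs turned in 23 such fits, none called, in results with these ranges. In Δ93 against Δ306, Cyp11b1 ran from -1.68 to 3.78, Cyp17a1 from -0.33 to 2.35, Insl3 from -0.12 to 1.04 and Ren1 from -0.33 to 1.18. In Δ104 against WT, Cyp11a1 ran from -0.86 to 0.11, Cyp17a1 from -0.74 to 0.16, Lhcgr from -0.93 to 0.053, Ren1 from -0.89 to 0.045 and Cyp21a1 from -1.81 to 0.0053, each highest without Δ104 replicate 1. In Meis1 KO, Star ran from -0.12 to 0.20, Cyp21a1 from -0.61 to 0.18, Mc2r from -0.29 to 0.092 and Ren1 from -0.28 to 0.21.

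Same-numbered libraries did not consistently deviate together (35 pairs, 9 with a correlation over 0.1, from -0.31 to 0.48). Such correlations cannot show whether libraries of the same number shared a litter or batch, and the labels do not say. With a replicate block, 10 genes were called in Δ93 against WT and 9 in Δ225 against Δ93, and uncalled signs turned for Hsd3b1 (-0.14) and Insl3 (-2.07) in Δ225 against WT, Cyp17a1 (-0.055), Insl3 (-0.89) and Ren1 (-0.40) in Δ93 against Δ306 and Ren1 (0.057) in Meis1 KO. Depth limits Cyp11b1 and Cyp21a1 most, with 0 counts in 5 of 22 libraries each.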
